A study of Mus musculus with 12 samples.

Results

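Interferon-stimulated genes are the genes that cells switch on after an interferon binds its receptor. A list of 39 of them, without the Ifi200 family, was followed over 12 arrays labelled as cultured mouse mast cells. A member was measured where the platform annotation paired a probe set with its symbol and no other. This held for 36 of the 39, out of 19938 genes tested in all. Isg15 and Gbp2 lie only on probe sets that name several genes, and Ifi44 has no listed probe set, so these 3 have no values here. Genes of the Ifit, Oas and Gbp families have near-identical copies, and a probe set of such a gene may also read its relatives.

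Per the labels, all arrays measured RNA of bone marrow derived mast cells, grown from the marrow of female mice aged 4 to 6 weeks in interleukin 3 at 10 ng/ml and stem cell factor at 12.5 ng/ml. Donors were C57BL/6 mice, the wild type, or ACKR2-/- mice, which lack an atypical receptor that takes up inflammatory CC chemokines. Cells were taken at 2 or at 10 weeks of culture, with 3 arrays in each of the 4 groups, and all groups shared the same cytokines. The design asks how the genotypes differ at each time and how the times differ in each genotype. Replicates are labelled as biological, but neither animals nor cultures are identified, so p-values measure the spread between these samples. The protocol calls the cultures homogeneous from 4 weeks on and mentions purification on CD117, the product of Kit, at 2 weeks for some experiments, without naming the arrays.

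Type I interferons bind a receptor on nearly every cell and activate JAK kinases at its inner side. A complex that includes STAT2 and IRF9 then binds the interferon-stimulated response element, while the response to interferon gamma acts mainly through the gamma-activated site. The induced proteins sense viral nucleic acid, block viral entry or replication, degrade RNA, or widen peptide presentation on MHC class I. Many are also kept at a low level without infection, and that level differs between immune cell types.

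Promoter sequences were taken from RefSeq (assembly GRCm38.p6), as windows of 250 bases before to 50 bases after each gene's start. The table held 30 of the 39 members. The core of the response element was searched as GAAA, any 2 bases, GAAA, on both strands, so that it reads TTTC, any 2 bases, TTTC on the other strand. It was found in 14 of the 30 members (46.7%) against 1079 of 27025 genes (3.99%), or 36.8% of the members' windows against 3.44% of all windows. The gamma-activated site, TTC, any 3 bases, GAA, which reads the same on both strands, was found in 11 of the 30 members (36.7%) against 9.55% of genes. Matches of the motifs overlapped each other in 2 of the members' windows. The stretches shown here are those of up to 2 measured members in each role with a response element match, to show how its copies lie near the start. Within a role, members with the largest difference between weeks in ACKR2-/- were taken. Isg15 and Gbp2 also held matches but have no values, so they are not shown. Each is written 5′ to 3′ on the gene's strand with the matches in capitals, and positions count from the start.
Ifit3, chr19:34583365-34583424, plus strand, -164 to -105: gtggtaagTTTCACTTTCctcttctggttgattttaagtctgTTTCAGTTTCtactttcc
Ifit1, chr19:34640769-34640828, plus strand, -120 to -61: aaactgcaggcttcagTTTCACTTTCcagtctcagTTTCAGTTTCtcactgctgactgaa
Oas3, chr5:120777700-120777759, minus strand, -100 to -41: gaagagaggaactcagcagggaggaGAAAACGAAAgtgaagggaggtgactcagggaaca
Oas1a, chr5:120907526-120907585, minus strand, -60 to -1: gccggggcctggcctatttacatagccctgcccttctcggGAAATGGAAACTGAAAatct
Stat2, chr10:128270251-128270310, plus strand, -247 to -188: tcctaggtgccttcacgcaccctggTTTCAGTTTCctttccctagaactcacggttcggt
Ifih1, chr2:62646206-62646235, minus strand, 21 to 50: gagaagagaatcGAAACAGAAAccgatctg
Ddx58, chr4:40239804-40239833, minus strand, -8 to 22: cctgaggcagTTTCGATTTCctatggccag
Rsad2, chr12:26456538-26456597, minus strand, -145 to -86: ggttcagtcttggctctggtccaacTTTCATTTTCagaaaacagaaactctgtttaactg
Ifitm3, chr7:141010715-141010744, minus strand, 1 to 30: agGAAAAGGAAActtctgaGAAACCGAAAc
Gbp3, chr3:142559977-142560036, plus strand, -67 to -8: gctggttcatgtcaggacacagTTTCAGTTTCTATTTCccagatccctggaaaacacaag
Ifit3, Ifit1 and Ifitm3 each hold a pair of separate matches, while in Oas1a and Gbp3 a pair of matches overlaps in a single run. Most of the shown matches lie before the start, but those of Ifitm3, Ifih1 and Ddx58 lie just after it. Psmb9 and Tap1 are divergent neighbours whose windows share 275 bases, and neither motif was found in them.

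Before any comparison, 4 arrays went against their labels. They were wild type 2-week array 3 and all 3 ACKR2-/- 2-week arrays. The mean log2 level of 16 mast cell markers was 6.78 to 6.91 on these 4 and 11.84 to 12.37 on the other 8. Fcer1a, a mast cell marker and IgE receptor chain, read 4.83 to 5.47 on the 4 and 13.74 to 14.14 on the 8. Xist, expressed from the inactive X of female cells, read 5.77 to 6.23 against 13 to 13.37, and Kdm5d, a gene of the Y chromosome, 10.06 to 10.51 against 6.04 to 6.42, although the labels name female mice. Kit read 7.51 to 9.18 on the 4 and at least 13.61 on the 8. B cell markers averaged 9.67 to 12.65 on the 4 arrays against 6.44 to 6.95, T and NK cell markers 8.60 to 11.20 against 6.99 to 7.76, plasmacytoid dendritic cell markers 9.65 to 10.25 against 7.34 to 8.0, and conventional dendritic cell markers 8.71 to 9.93 against 6.92 to 7.65. The probe set of Ackr2 read 7.79 to 9.43 at 2 weeks and 8.16 to 8.34 at 10 weeks on ACKR2-/- arrays and 7.88 to 8.38 on wild type arrays, and whether it lies in the deleted part is not given in the sources used here, so it does not check the genotype. Groups are therefore named by their labels only, and each result resting on the 4 arrays is given with that in view.

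The interferon-stimulated genes followed the same division. Of the 36 measured members, 30 were higher on every one of the 4 arrays than on any of the other 8, as were 11.8% of all genes. Ifitm3 alone lay below the other 8 throughout, as did 15% of all genes, and Stat2, Eif2ak2, Oas1a, Usp18 and Bst2 overlapped. The mean of the 36 members ranged from 9.83 to 10.09 on the 4 arrays and from 8.55 to 8.75 on the 8. In a mixed culture, fewer cells of a type and less RNA per cell cannot be told apart. The mean levels of lymphocyte and dendritic cell markers were also higher on these arrays, as given above, but not every marker was. Eomes, of the T and NK cell markers, read 8.83 to 10.43 on the 4 and 8.91 to 11.99 on the 8. Monocyte and macrophage markers averaged 10.15 to 10.65 on the 4 against 7.69 to 10.55, and neutrophil markers 7.05 to 7.61 against 6.71 to 9.85. The part of these cell types in the members' levels was not tested.

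**Figure D1:**
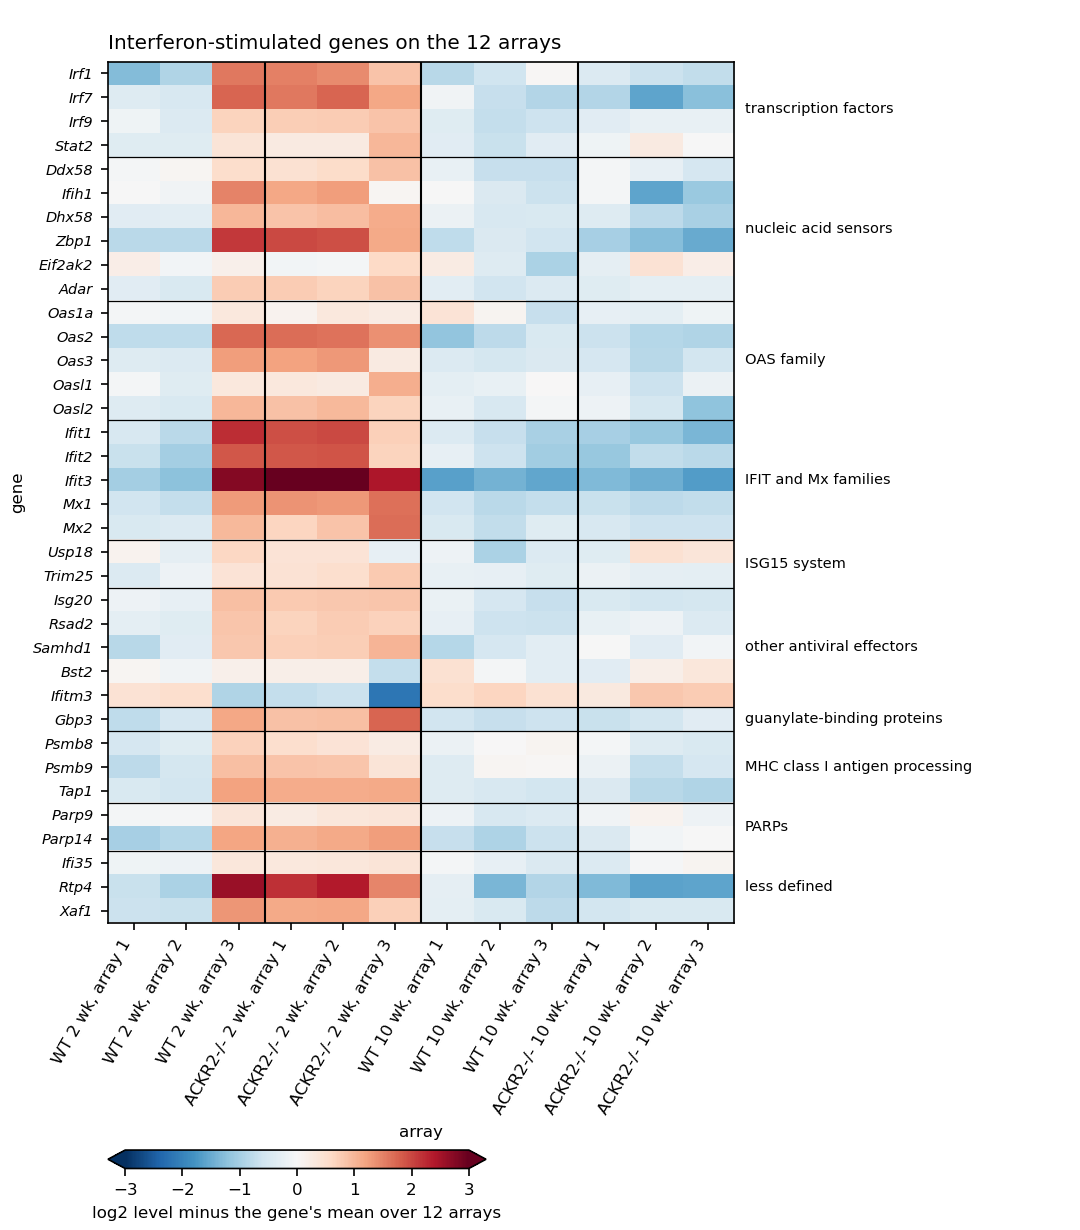
Colour shows the log2 level of each of the 36 measured genes (rows, grouped by role) on each of the 12 arrays (columns, grouped by label) minus the gene's mean over the 12 arrays. Wild type 2-week array 3 and the 3 ACKR2-/- 2-week arrays are high for 30 genes and low for Ifitm3, and the other 8 arrays resemble each other.

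Wild type 2-week array 3 resembled the ACKR2-/- arrays and not its own group. Over the 36 members its median absolute difference was 0.0883 from ACKR2-/- 2-week array 2 and 0.117 from array 1, but 1.42 from array 1 of its own group. Arrays 1 and 2 of the ACKR2-/- 2-week group differed by 0.0498. No pair of arrays held the same values throughout. That does not show whether their RNA came from different animals or cultures, which the labels do not identify. ACKR2-/- 2-week array 3 had the most B cell and the least T and NK cell transcript of the 4. It lay outside the range of the remaining 3 in 31 members, above them in 14 and below them in 17. The share of all genes doing so was not counted, so these counts, from 1 array, have no background to be read against. Against the mean of the 3 the log2 level of this array was lower for Ifitm3 (-1.42), Ifit1 (-1.33), Ifih1 (-1.26) and Ifit2 (-1.19). It was higher for Mx2 (0.84), Oasl1 (0.78), Gbp3 (0.76) and Stat2 (0.70). On this 1 array with the most B cell transcript the IFIT genes lay below, and the Mx genes above, their levels on the other 3.

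Between 2 and 10 weeks of culture on the arrays labelled ACKR2-/-, 24 of 36 interferon-stimulated genes passed the test, 23 lower and 1 higher at 10 weeks. Over all genes 16.8% passed, 6.33% lower and 10.5% higher. The threshold was an adjusted p of 0.05 from limma, Benjamini-Hochberg adjusted over the 19938 genes. The median log2 difference of the 36 members was -1.32, against 0.06 for all genes. Of the members that fell, 19 did so by at least 2-fold and 8 by at least 4-fold. Another 11 were below 0 without passing. The arrays of both groups did not overlap for 31 members that were lower (17.7% of all genes) and for Ifitm3, which was higher (26.7%). All 3 of the 2-week arrays here are among the 4 low in mast cell transcripts, so culture time and the makeup of those samples cannot be told apart.

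**Figure D2:**
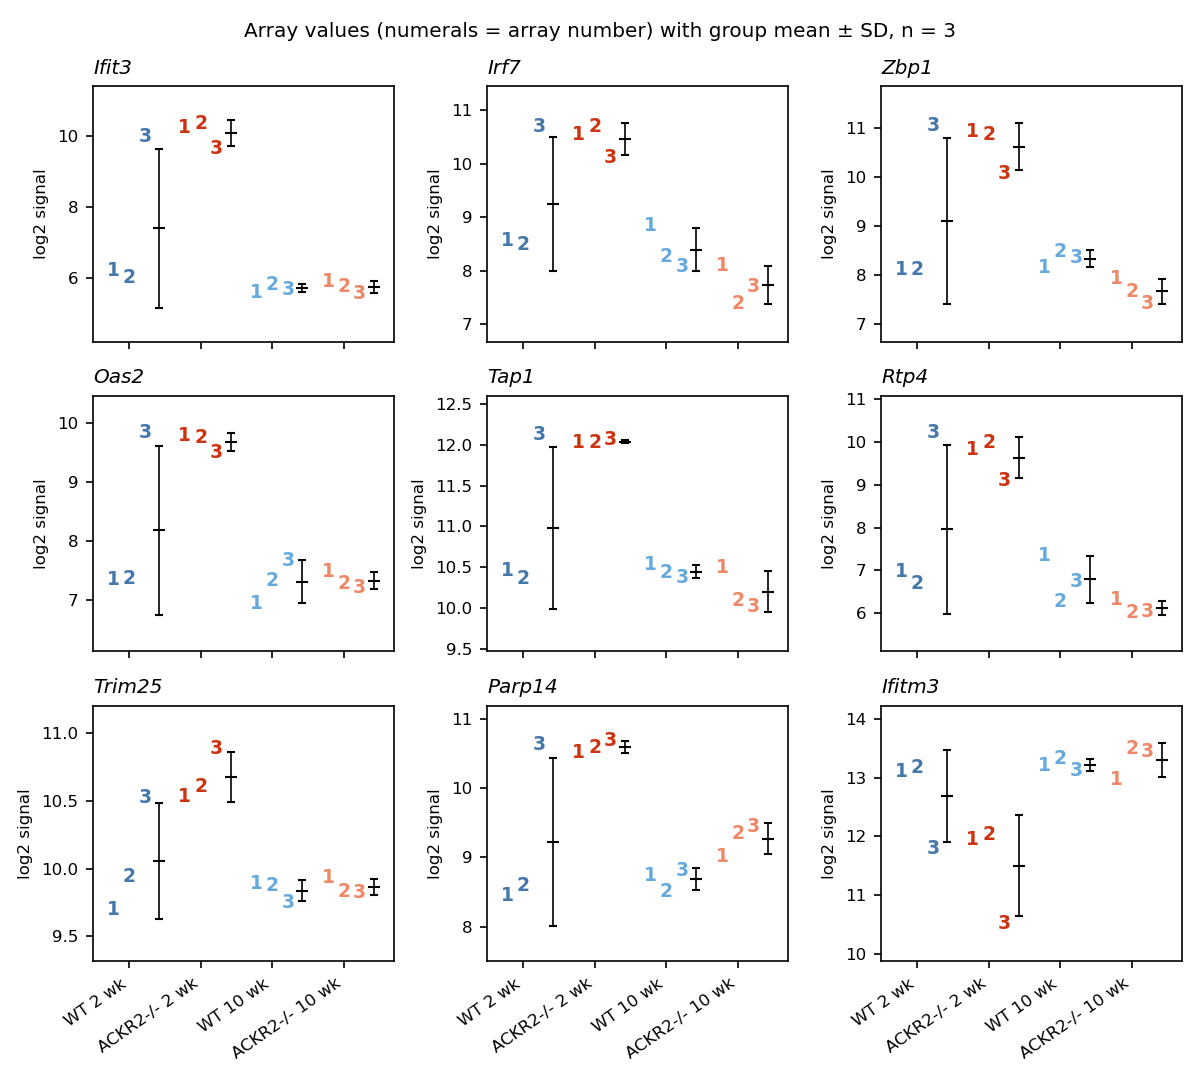
Each panel gives the log2 signal of 1 gene on every array, drawn as the array's number, with the group mean ± SD (n = 3) beside it; the vertical scales differ between panels. In 8 of the 9 panels wild type 2-week array 3 sits with the ACKR2-/- 2-week arrays above all others, and in the panel of Ifitm3 these 4 sit below.

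The IFIT and Mx proteins bind viral RNA or trap viral nucleocapsids, and all 5 measured members fell. Ifit3, which stabilises the RNA-binding Ifit1 complex, read 10.24, 10.36 and 9.67 on the ACKR2-/- 2-week arrays and 5.90, 5.76 and 5.56 at 10 weeks. On wild type arrays it read 6.21, 5.99 and 9.99 at 2 weeks and 5.59, 5.82 and 5.67 at 10 weeks. Array 3 of the wild type 2-week group was the only wild type array as high as the ACKR2-/- 2-week arrays. The fall in ACKR2-/- was -4.35 ± 0.82 (SE, log2), with a limma adjusted p of 0.0137. Ifit1 itself read 9.44, 9.49 and 8.22 at 2 weeks and 6.52, 6.37 and 6.14 at 10 weeks on ACKR2-/- arrays, and 7.04, 6.71 and 9.72, then 7.11, 6.83 and 6.54, on wild type arrays. Its groups again did not overlap between the weeks in ACKR2-/-, and it fell by 2.71 (-2.71 ± 0.66, limma adjusted p = 0.0217). Ifit2 changed by -2.36 ± 0.64, Mx1 by -2.16 ± 0.41 and Mx2 by -1.63 ± 0.37, with limma adjusted p-values of 0.0315, 0.0137 and 0.0170.

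The nucleic acid sensors start the antiviral response or act on double-stranded RNA, and 5 of 6 fell. Zbp1, which recognises nucleic acid in the Z form and can trigger cell death, read 10.91, 10.86 and 10.06 on the ACKR2-/- 2-week arrays and 7.93, 7.65 and 7.40 at 10 weeks. On wild type arrays it read 8.11, 8.11 and 11.05 at 2 weeks and 8.16, 8.48 and 8.35 at 10 weeks. The lowest ACKR2-/- 2-week value was above every value outside the 4 arrays, and the change was -2.95 ± 0.65 (limma adjusted p = 0.0156). Ifih1, the MDA5 sensor, changed by -1.75 ± 0.51, Dhx58, its relative LGP2, by -1.68 ± 0.32, and Ddx58, the RIG-I sensor, by -0.89 ± 0.20. Adar, which edits adenosines of double-stranded RNA, changed by -1.09 ± 0.26. The limma adjusted p-values of these 4 were 0.0404, 0.0137, 0.0167 and 0.0198. Eif2ak2, the kinase PKR that halts translation, did not pass, with a difference of -0.02 (limma adjusted p = 0.972).

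Among the transcription factors, Irf7, which amplifies the type I response, read 10.55, 10.70 and 10.13 on the ACKR2-/- 2-week arrays and 8.09, 7.38 and 7.71 at 10 weeks. Its wild type values were 8.57, 8.48 and 10.70, then 8.84, 8.27 and 8.08. The change in ACKR2-/- was -2.73 ± 0.50 (limma adjusted p = 0.0137), with no overlap. Irf9, the DNA-binding part of the response element complex, changed by -1.04 ± 0.23 (limma adjusted p = 0.0156). Irf1, more closely tied to interferon gamma, had a difference of -1.86 ± 0.60 that missed the threshold (limma adjusted p = 0.0593), and Stat2 one of -0.47 (limma adjusted p = 0.245).

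The OAS enzymes make short oligoadenylates that activate RNase L, and 4 of 5 measured members of the family fell. Oas2 read 9.80, 9.75 and 9.50 on the ACKR2-/- 2-week arrays and 7.49, 7.27 and 7.22 at 10 weeks, against 7.36, 7.36 and 9.84 and then 6.93, 7.33 and 7.67 on wild type arrays. The change was -2.36 ± 0.54 (limma adjusted p = 0.0177), without overlap in ACKR2-/-. Oasl2, an OAS-like protein, read 9.33, 9.42 and 9.11 and then 8.29, 7.91 and 7.24 on ACKR2-/- arrays, and 8.05, 7.98 and 9.44, then 8.21, 7.96 and 8.38, on wild type arrays. It changed by -1.47 ± 0.37, Oas3 by -1.56 ± 0.41 and Oasl1 by -0.91 ± 0.24, with limma adjusted p-values of 0.0240, 0.0276 and 0.0291. Oas1a, whose promoter stretch carries overlapping matches, had a difference of -0.44 (limma adjusted p = 0.242).

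In the ISG15 system, which couples a ubiquitin-like protein to targets, 1 of 2 measured members fell. Trim25, a ligase that also activates RIG-I, read 10.54, 10.60 and 10.89 and then 9.93, 9.83 and 9.82 on ACKR2-/- arrays, and 9.70, 9.94 and 10.53, then 9.89, 9.87 and 9.75, on wild type arrays. Its change of -0.81 ± 0.19 was small but larger than the spread within either ACKR2-/- group (limma adjusted p = 0.0176). The wild type 2-week arrays spread as widely as that change, from 9.70 to 10.53. Usp18, which removes ISG15 and restrains the interferon receptor, read 10.09, 10.09 and 9.43 and then 9.31, 10.14 and 10.03 on ACKR2-/- arrays, and 9.79, 9.41 and 10.31, then 9.54, 8.73 and 9.26, on wild type arrays. Its weeks overlapped in both genotypes, and the ACKR2-/- difference was -0.04 (limma adjusted p = 0.953).

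Other antiviral effectors divided: 2 of 5 fell, 1 rose and 2 did not pass. Ifitm3, a membrane protein that stops viruses fusing with endosomes, read 11.96, 12.04 and 10.51 on ACKR2-/- arrays at 2 weeks and 12.97, 13.50 and 13.44 at 10 weeks, against 13.11, 13.18 and 11.79 and then 13.21, 13.33 and 13.13 on wild type arrays. It was the 1 member that rose, by 1.81 ± 0.44 (limma adjusted p = 0.0212), and its level was high wherever mast cell transcripts were high. Its relatives Ifitm1 and Ifitm2, from a second list of interferon-stimulated genes, rose as well, by 5.92 ± 1.16 and 2.67 ± 0.51 (limma adjusted p = 0.0138 and 0.0137). Samhd1, which depletes the nucleotides that viruses need for DNA synthesis, read 12.33, 12.35 and 12.64 and then 11.59, 11.28 and 11.52 on ACKR2-/- arrays, and 10.78, 11.27 and 12.43, then 10.76, 11.11 and 11.29, on wild type arrays. Its groups did not overlap in ACKR2-/-, but the difference of -0.98 ± 0.34 did not pass (limma adjusted p = 0.0746). The exonuclease Isg20 changed by -1.32 ± 0.26 and Rsad2, which encodes viperin, by -0.97 ± 0.27 (limma adjusted p = 0.0138 and 0.0349). Bst2, which tethers budding virus, had a difference of 0.17 (limma adjusted p = 0.739).

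Of 3 measured genes of MHC class I antigen processing 1 fell, as did Gbp3, the only measured guanylate-binding protein among the members. Tap1, a subunit of the peptide transporter for MHC class I, read 12.03, 12.02 and 12.06 and then 10.49, 10.10 and 10.02 on ACKR2-/- arrays, and 10.46, 10.37 and 12.12, then 10.53, 10.44 and 10.37, on wild type arrays. The 2-week ACKR2-/- values were nearly identical, and Tap1 changed by -1.84 ± 0.37 (limma adjusted p = 0.0141). Psmb9, an immunoproteasome subunit encoded beside it, read 11.69, 11.66 and 11.22 and then 10.66, 10.12 and 10.33 on ACKR2-/- arrays, and 10.05, 10.31 and 11.74, then 10.43, 10.88 and 10.86, on wild type arrays. Its difference of -1.15 ± 0.37 did not pass (limma adjusted p = 0.0588), nor did that of Psmb8, another such subunit, at -0.69 (limma adjusted p = 0.109). Gbp3, a guanylate-binding protein, read 8.84, 8.86 and 9.71 and then 7.29, 7.41 and 7.62 on ACKR2-/- arrays, and 7.19, 7.46 and 9.13, then 7.38, 7.26 and 7.34, on wild type arrays. It changed by -1.70 ± 0.43 (limma adjusted p = 0.0240) and, unlike most members, was highest on the array with the most B cell transcript.

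The remaining members were Rtp4, a receptor transporter protein, Xaf1, an inhibitor of the apoptosis blocker XIAP, Ifi35 and the ADP-ribosyltransferases Parp9 and Parp14. Rtp4 read 9.82, 9.99 and 9.10 and then 6.31, 6.02 and 6.04 on ACKR2-/- arrays, and 6.96, 6.68 and 10.22, then 7.36, 6.26 and 6.75, on wild type arrays. It had the second largest change of all members in this comparison, -3.51 ± 0.76 (limma adjusted p = 0.0150). Xaf1 changed by -1.49 ± 0.43 (limma adjusted p = 0.0404), and Ifi35 had a difference of -0.46 that did not pass (limma adjusted p = 0.0903). Parp14 read 10.51, 10.58 and 10.68 and then 9.02, 9.35 and 9.44 on ACKR2-/- arrays, and 8.44, 8.60 and 10.62, then 8.74, 8.51 and 8.81, on wild type arrays. Neither Parp14 nor Parp9 passed, with differences of -1.32 ± 0.45 and -0.36 (limma adjusted p = 0.0731 and 0.106), although no arrays of the weeks overlapped for either.

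This comparison rests on few arrays. Without ACKR2-/- 10-week array 2, or without array 3 of that group, no member and no other gene passed (lowest limma adjusted p of a member 0.0555 and 0.0584). Without ACKR2-/- 2-week array 1, or without array 2, 12 members passed, as did 1514 and 1391 of all genes. Every called member kept its direction in all of these fits, with Ifit3 between -4.59 and -4.21 over the alternatives. Members with and without a response element match in the promoter both fell: of 12 measured members with a match 7 fell and 1 rose (median -0.93), and of 15 without one 10 fell (median -1.15).

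Genes around the members were counted in the same comparison, where 6.33% of all genes were lower and 10.5% higher. Of 21 interferon ligand genes listed, 16 were measured and none passed (median -0.05). Among these ligands Ifng, interferon gamma, had the lowest p with a difference of -1.30 ± 0.47 (limma adjusted p = 0.0842), reading 8.61, 8.55 and 7.39 on the ACKR2-/- 2-week arrays, 8.82 on wild type 2-week array 3 and 6.67 to 7.0 elsewhere. It was highest on the 3 arrays with the highest T and NK cell markers. Ifnk was next (-0.28, limma adjusted p = 0.265), and Ifnb1, interferon beta, stayed between 5.68 and 6.36 on all 12 arrays. Of 6 receptor chains 4 fell, with Ifngr2 at -2.78 ± 0.71, Ifngr1 at -1.99 ± 0.40 and Il10rb at -1.50 ± 0.34 (limma adjusted p = 0.0253, 0.0141 and 0.0166). None of 5 measured signalling genes next to the receptor passed, Jak1 being nearest at -0.65 (limma adjusted p = 0.0503) and Jak2 next at 0.29 (limma adjusted p = 0.168).

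Of 15 genes that induce interferon, 5 fell and 1 rose. Tlr7, an endosomal RNA receptor, changed by -5.06 ± 0.92, Irf8, a factor of dendritic cell, B cell and monocyte identity, by -3.80 ± 0.60 and Tlr9, an endosomal DNA receptor, by -2.71 ± 0.60 (limma adjusted p = 0.0137, 0.0137 and 0.0161). Of 12 negative regulators 3 rose and 2 fell. Over all genes 10.5% rose and 6.33% fell, and in lists this short a count of 1 to 3 genes shows little against those shares. Ptpn2, a phosphatase acting on JAK kinases, rose by 1.83 ± 0.45 and Socs1, an inhibitor of the JAK kinases, by 1.67 ± 0.33 (limma adjusted p = 0.0222 and 0.0138), while Irf2, a repressor at the response element, fell (-0.76, limma adjusted p = 0.0454). Of 38 measured other interferon-stimulated genes 15 fell and 3 rose (median -1.00). The largest fall there was that of the chemokine gene Ccl5, at -3.95 ± 0.81 (limma adjusted p = 0.0142), followed by Epsti1 at -3.73 ± 0.84 (limma adjusted p = 0.0167). Of 8 measured interferon gamma GTPases 3 fell, Gbp9, Gbp8 and Gbp5, by -3.27 ± 0.62, -2.71 ± 0.71 and -1.94 ± 0.58 (limma adjusted p = 0.0137, 0.0278 and 0.0462), and of 13 measured MHC class I genes 6 fell, led by H2-Q4 at -3.38 ± 0.60, H2-M3 at -1.90 ± 0.44 and Tapbpl at -1.82 ± 0.56 (limma adjusted p = 0.0137, 0.0183 and 0.0484). In the same comparison all 10 measured B cell markers fell and 13 of 16 mast cell markers rose. Also lower were 6 of 8 plasmacytoid and 5 of 8 conventional dendritic cell markers, and 2 of 11 T and NK cell markers. Of 13 monocyte and macrophage markers 6 fell and 1 rose, and none of 13 neutrophil markers passed. The part of these cell types in the counts of interferon genes was not tested.

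On wild type arrays, none of the 36 members passed between 10 and 2 weeks in limma's test (0% of all genes), and 4 members and 1326 of all genes had an unadjusted p under 0.05. The members' median difference was -0.54 with all arrays, 33 of them below 0. Without wild type 2-week array 3 the median was -0.03, with 16 members above 0 and again none passing (6 members and 1474 genes with an unadjusted p under 0.05). Ifit3 moved from -1.71 to -0.41, and Irf1 from -0.25 to 0.64, when that 1 array was left out. The 5 members with the lowest p over all arrays were Ddx58 (-0.70 ± 0.20, limma adjusted p = 0.668), Parp9 (-0.44), Irf9 (-0.61), Isg20 (-0.62) and Usp18 (-0.66). Ddx58, Oas3, Ifit3 and Parp9 were lower at 10 weeks without overlap of the arrays, as were 3.45% of all genes, and no member was higher without overlap (5.29%). Ddx58 read 10.81, 10.91 and 11.38 at 2 weeks and 10.65, 10.17 and 10.17 at 10 weeks on wild type arrays.

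**Figure D3:**
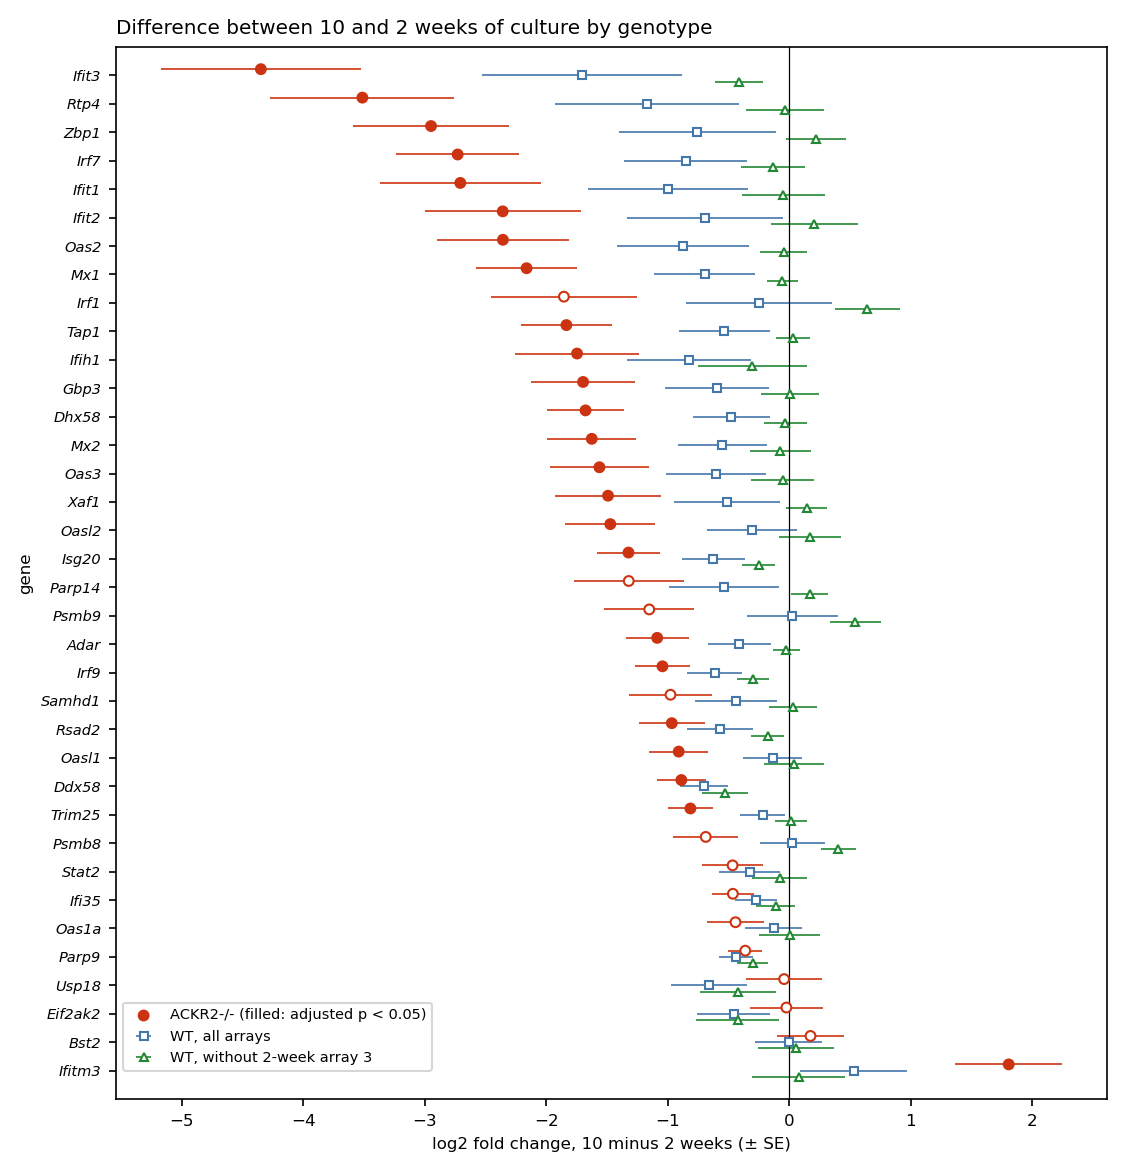
Points are log2 differences of 10 minus 2 weeks (± SE) for the 36 genes: red circles for ACKR2-/- arrays (filled where the limma adjusted p was under 0.05), blue squares for wild type arrays, and green triangles for wild type arrays without 2-week array 3. Red points lie left of 0 for 34 genes, with Ifitm3 far to the right, and the triangles scatter around 0 with a median of -0.03.

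At 2 weeks, the members had higher means in the group labelled ACKR2-/-, but none of 36 passed limma's test (0% of all genes). An unadjusted p under 0.05 was reached by 23 members and 3480 genes. The median difference was 0.79, with 34 of 36 above 0. Lowest in p were Mx1 (1.44 ± 0.41), Trim25 (0.62 ± 0.19), Ifit3 (2.69 ± 0.82), Irf9 (0.74 ± 0.23) and Parp14 (1.37 ± 0.45), the smallest limma adjusted p being 0.225. Irf9, Mx1 and Trim25 were higher in ACKR2-/- without overlap (4.97% of all genes), which includes the odd wild type array, and none was lower without overlap (8.6%). When wild type 2-week array 3 was left out, 30 members passed, 29 higher and Ifitm3 lower in ACKR2-/-, along with 4738 of all genes. With limma's array weights 33 passed, along with 9197 genes. Wild type 2-week arrays 1, 2 and 3 had weights of 4.58, 8.28 and 0.44, so array 3 counted little in its group mean. The members' median was 1.20 with these weights and 1.285 without that array. Wild type 10-week array 2 was given 1.4e-06 and so all but left the fit. Without wild type 2-week array 3, every ACKR2-/- 2-week array is low and both wild type 2-week arrays are high in mast cell transcripts, so genotype and the makeup of the samples cannot be told apart.

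At 10 weeks, where all 6 arrays had high mast cell transcripts, no interferon-stimulated gene differed between the genotypes past the threshold. None of the 36 passed limma's test (0% of all genes), none had an unadjusted p under 0.05, and 1566 of all genes had one. With 18 members above 0 and 18 below, the median was -0.0047, against 0.0076 over all genes. Lowest in p were Parp9 (0.30 ± 0.14, limma adjusted p = 0.643), Usp18 (0.66 ± 0.31), Stat2 (0.49 ± 0.25), Eif2ak2 (0.49 ± 0.30) and Irf9 (0.31 ± 0.23). The 95% intervals ran from -1.78 to 1.87 for Ifit3, from -2.10 to 0.76 for Zbp1 and from -0.014 to 0.61 for Parp9. For Ifit3 the width comes largely from the spread among the 2-week wild type arrays, which the fit shares. Its difference was 0.05 ± 0.82 with all arrays, ± 0.18 without wild type 2-week array 3 and ± 0.13 without the 4 arrays low in mast cell transcripts. For Parp9 the SE changed little, from 0.14 to 0.11 and 0.13 in the same fits.

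Few members were separated array by array at 10 weeks. Irf9, Stat2, Parp9 and Parp14, 4 of 36, were higher on all ACKR2-/- arrays than on any wild type array, as were 8.61% of all genes. Zbp1 and Ifit1, 2 of 36, were lower, as were 5.98% of all genes. Both counts were close to the shares over all genes, so they show nothing particular to the members. Parp14, listed above, differed by 0.58 ± 0.45 with all arrays and by 0.58 ± 0.14 without the 4, and Zbp1 by -0.67 ± 0.65 and -0.67 ± 0.15. Stat2 read 9.49, 9.16 and 9.50 on wild type and 9.70, 10.09 and 9.82 on ACKR2-/- arrays, and Irf9 read 9.83, 9.47 and 9.56 against 9.86, 9.97 and 9.98. Within the ACKR2-/- group, arrays 2 and 3 stood apart from array 1 for several members. Ifih1 read 8.39 on array 1 but 6.88 and 7.33 on arrays 2 and 3, while Usp18 read 9.31 on array 1 and 10.14 and 10.03 on the others. Irf7 differed by -0.67 ± 0.50 and Rtp4 by -0.67 ± 0.76 with all arrays, with SEs of 0.23 and 0.25 without the 4.

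Monocyte and macrophage transcripts also differed among the 10-week arrays. The mean of 13 measured markers was 9.94, 7.69 and 7.91 on the ACKR2-/- 10-week arrays and 9.32, 10.55 and 10.00 on the wild type ones, and all 13 had a difference below 0. Neutrophil markers averaged 7.41, 6.84 and 6.71 against 8.75, 9.85 and 7.84. Ifngr2, a chain of the interferon gamma receptor, read 11.42, 7.75 and 8.65 against 11.45, 11.89 and 11.55, and Gbp9 read 9.0, 6.37 and 7.11 against 8.97, 8.32 and 8.62. Their part in the members' values on arrays 2 and 3 was not tested. With the 4 arrays low in mast cell transcripts left out of the fit, again no member passed at 10 weeks, and 9 members and 2567 genes had an unadjusted p under 0.05. The 9 were Irf9, Stat2, Parp9, Parp14 and Usp18, higher in ACKR2-/-, and Zbp1, Ifit1, Irf7 and Rtp4, lower. The lowest limma adjusted p was then 0.236, for Zbp1.

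**Figure D4:**
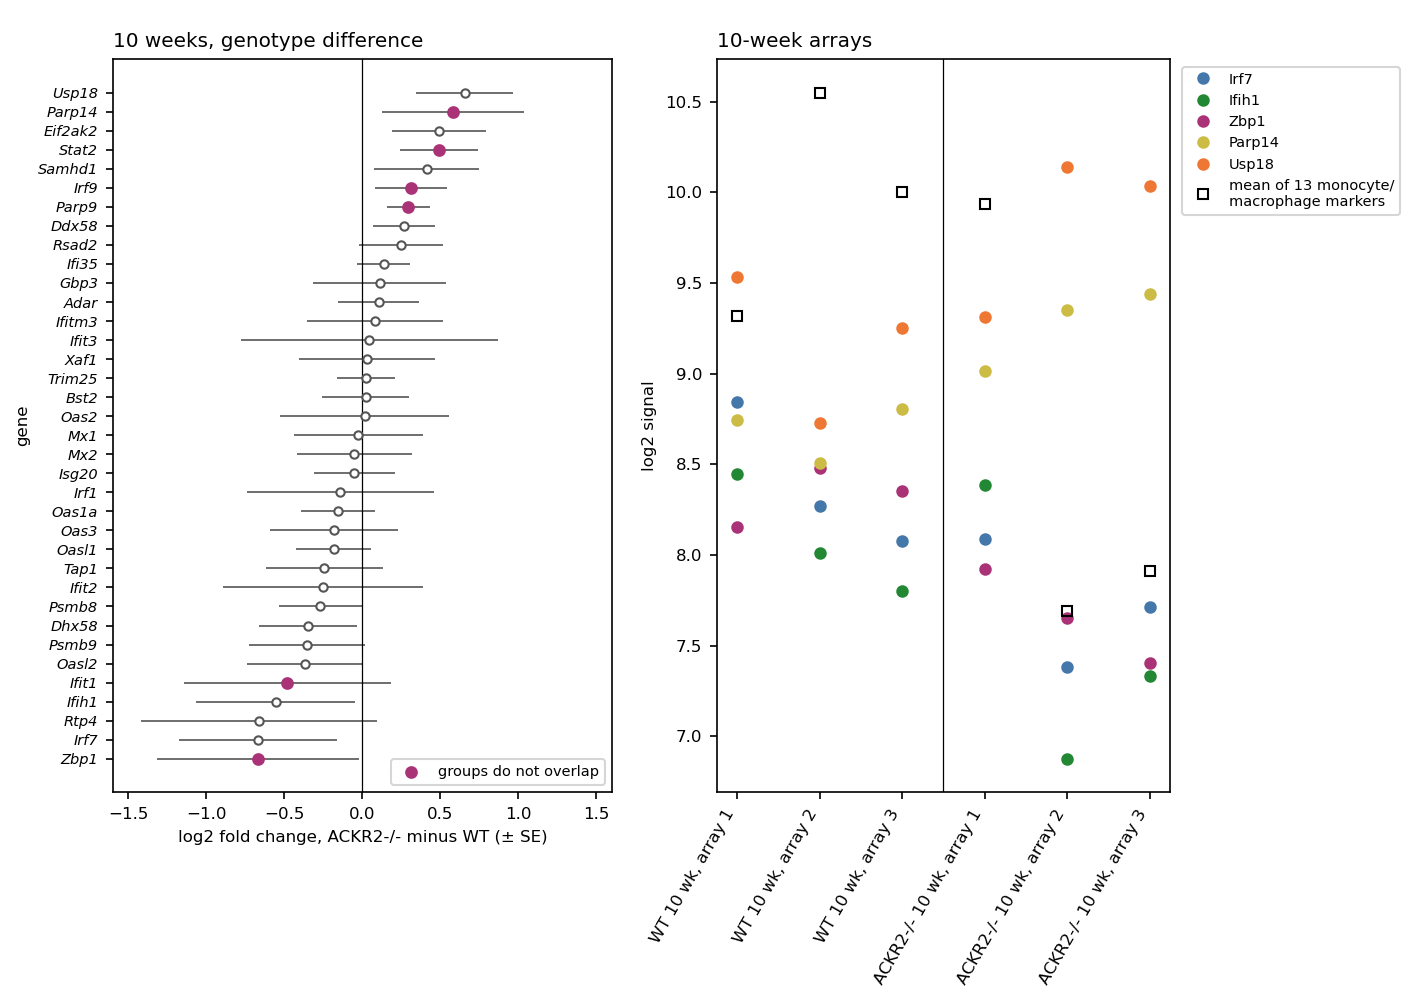
The left panel gives the log2 difference of ACKR2-/- minus wild type at 10 weeks (± SE, from the fit of all 12 arrays) for the 36 genes, filled where the arrays of the groups do not overlap. The right panel gives the log2 signal of 5 genes and the mean of 13 monocyte and macrophage markers on the 6 arrays of 10 weeks; on ACKR2-/- arrays 2 and 3 the markers, Ifih1 and Irf7 are lowest and Usp18 and Parp14 highest.

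Whether the week difference itself differed between the genotypes was tested as an interaction, and none of the 36 members passed limma's test (0% of all genes), with 10 members and 2271 genes at an unadjusted p under 0.05. The members' median was -0.85, and the lowest limma adjusted p was 0.424, for Dhx58 (-1.20 ± 0.45). Irf7 (-1.88 ± 0.71), Mx1 (-1.47 ± 0.58), Tap1 (-1.30 ± 0.53) and Zbp1 (-2.19 ± 0.91) followed. Without wild type 2-week array 3, 26 members passed, 25 lower and Ifitm3 higher, along with 3138 of all genes. In that fit the ACKR2-/- 2-week arrays are the only ones low in mast cell transcripts, so genotype and the makeup of the samples cannot be told apart. With array weights 26 passed, along with 4136 of all genes. These weights all but remove wild type 10-week array 2 and leave wild type 2-week array 3 little part in its group mean.

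Over the 8 arrays with high mast cell transcripts the members' ranges differed. Mx1 spanned 0.24 between its lowest and highest array, Trim25 0.25 and Adar 0.27. The widest ranges were those of Ifih1 at 1.57, Irf7 at 1.46, Usp18 at 1.42 and Eif2ak2 at 1.38. Mx1 read 5.64 to 5.88 there, well below the array medians of 7.76 to 7.90, and without detection calls a narrow range at that level does not show steady expression. The sensor Ifih1 and the factor Irf7 were lowest on ACKR2-/- 10-week array 2.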

How the data were processed

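Whole-transcript array targets were made from 250 ng of total RNA per sample, per the labels' protocols. The authors deposited log2 signals; the submitters' processing notes name RMA and Partek 6.5. There is no detection call, so signal over background could not be examined. RMA equalises the arrays' distributions, and array medians lay between 7.76 and 7.90. Of 35399 probe sets, 21789 had 1 gene symbol in the platform annotation, 1621 had several and 11989 had none. The probe set with the highest mean was kept per gene. Group means of all 12 arrays were fitted with limma 3.58.1 in R 4.3.3 (8 residual and 2.39 prior degrees of freedom). The fit was first run on simulated data with less noise than these arrays and no array against its label. That checks the code but not the power in these data. The genome build of the probe sets is not given in the sources used here.

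The members, gene lists and markers were chosen with earlier results of these data known. Values on every array are given for the member of each role with the largest difference between weeks in ACKR2-/- and between genotypes at 10 weeks, and for members against the majority. Where none passed, the 5 members with the lowest p are named, and of each gene list up to 3 called genes or the 2 with the lowest p; Ifnb1, Ifitm2, Ifngr2, Gbp9 and Ifih1 at 10 weeks, and the steadiest and widest members over 8 arrays, were chosen after their values were seen. Same-numbered arrays deviated together in all 3 pairs only between wild type at 2 and 10 weeks (correlations 0.166 to 0.359), a hint from the data, since the labels do not say what a number shares. Each array was left out in turn, and other normalizations, filters, variance models and blocks were tried.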

Additional observations from a re-analysis of the deposited data

How the results depend on the processing

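The count of interferon-stimulated genes that passed between 10 and 2 weeks in ACKR2-/- was 24 with all arrays and lay between 0 and 31 when each of the 12 arrays was left out in turn. It was 0 without ACKR2-/- 10-week array 2 or array 3, with 0 of the 19938 genes. Without ACKR2-/- 2-week array 1 or array 2 it was 12, with 1514 and 1391 of all genes. Without wild type 2-week array 3 it was 31, with 4994 of all genes. For the genotypes at 2 weeks the count was 0 with all arrays and between 0 and 30 with 1 array left out. Where 30 members passed, 4738 of all genes did. With array weights it was 33, with 9197 of all genes. For the interaction it was 0 with all arrays and between 0 and 26 with 1 array left out. Where 26 members passed, 3138 of all genes did. With array weights it was 26, with 4136 of all genes. In each of these, wild type 2-week array 3 gave the highest count when left out. The array weights gave wild type 10-week array 2 a weight of 1.4e-06. Wild type 2-week array 3 had 0.44, against 4.58 and 8.28 for arrays 1 and 2 of its group. Counts with array weights therefore rest little on either of these arrays. For the genotypes at 10 weeks and for the weeks in wild type the count was 0 under every alternative tried. With the replicate number as a block over all arrays, the replicate block, 20 members passed between the weeks in ACKR2-/-, with 2897 of all genes. Ifih1, Ifit2, Rsad2 and Xaf1 were lost, and no other count of members changed. A block in wild type arrays alone left the wild type count at 0. Centring each array on its median moved the median difference of all genes between the weeks in ACKR2-/- from 0.06 to 0.16. That of the members moved from -1.32 to -1.22. As before, 23 members were lower and 1 higher, and 3762 of all genes passed. Over all genes the count between the weeks in ACKR2-/- was 3358, but 9550 with array weights. Of the named members' values under the alternatives, 769 kept their direction and side of the threshold, 94 lost the threshold, 20 gained it and no called value reversed. The cause of these changes was not tested. Array values without detection calls do not show whether a low member is above background, and 3 arrays a group limit what can be seen.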
